A study of Mus musculus with 29 samples.

Results

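The comparison set 3 liver libraries of male mice exposed to tributyltin (TBT) during development against 4 liver libraries labelled VEH, all of 5 months of age. They are 7 of the 29 libraries of the series. TBT is an organotin compound, and the dams received it in their drinking water while carrying and nursing the pups. VEH was read as the vehicle control. The TBT group holds the libraries numbered 3, 5 and 6 and the VEH group those numbered 1, 2, 3 and 5, with the numbers used as replicate names. The sources used here do not give the dose of TBT, the mouse strain, the litter, the feeding state or the hour of tissue collection. Nor do the labels tie a library to 1 animal, so p values here reflect only how far samples vary, which may be technical. The fit that gave them also drew its spread from the older liver libraries described below.

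The 7 were chosen by 2 measured levels. Libraries of 5 months with more than 50 CPM (read counts after scaling for library depth) of Ly6d, a surface protein gene, or more than 100 CPM of Sis, the sucrase-isomaltase of the intestinal brush border, were left out. Sis reached 701 CPM in TBT replicate 2, against at most 0.266 CPM in the 7 kept libraries. Ly6d reached 113 CPM in TBT replicate 4, and 72.5 and 123 CPM in VEH replicates 4 and 6, against at most 7.03 CPM in the kept libraries. These 4 libraries enter the text only as values set beside a result. The 5 TBT and 6 VEH liver libraries of 10 months, male offspring of the same treatments, entered the fit and gave the same contrast at the later age.

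Depth differed between the kept groups. The TBT libraries held 13017096, 7513448 and 13661352 counts, and the VEH libraries held 18603160, 21953216, 21045484 and 33704303. Every TBT library was thus shallower than every VEH library, and depth and group cannot be told apart. Albumin and the other 4 hepatocyte markers were detected in all 7 libraries, at summed levels of 85729 to 109769 CPM in TBT and 71806 to 154223 CPM in VEH liver. Saa2, a serum amyloid gene of the acute phase response, was at 7769.8, 70.4 and 18.04 CPM in the TBT libraries, against 198, 114, 14043 and 559.8 CPM in the VEH libraries, so that replicate 3 of each group stood apart. Neutrophil markers summed to 55.9 CPM in TBT replicate 3 and 11.7 CPM in VEH replicate 3, against at most 5.18 CPM in the other 5 libraries. The 6 erythroid markers summed to 579.9, 1277 and 1109 CPM in the TBT libraries and to 1116, 228, 192 and 196 CPM in the VEH libraries, and their part in the results was not tested.

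TBT is known as an activator of the nuclear receptors PPARG and RXR, which act as a pair on genes of fat storage, and it has been studied as a compound that promotes fat cells and fatty liver after exposure in the womb. RXR is also the partner of liver receptors for fatty acids, oxysterols, bile acids and foreign compounds. The liver further runs a circadian clock, in which BMAL1 with CLOCK or NPAS2 switches on the period and cryptochrome genes, whose products shut BMAL1 off again, and output factors carry the daily rhythm to metabolic genes.

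Of 13115 genes tested with edgeR, 47 (0.358%) passed an adjusted p of 0.05 between TBT and VEH liver. TBT liver had 24 of these higher (0.183%) and 23 lower (0.175%). In 46 of the 47, the 3 TBT libraries lay entirely above or below the 4 VEH libraries. The exception was Zfyve21, a gene of a zinc finger protein of endosomes. Groups that do not overlap were found for 8.06% of all genes tested. The called changes were mostly small, with a median size of 0.71 on the log2 scale and a range of 0.39 to 4.09, and 4 higher and 9 lower genes reached a 2-fold change. An unadjusted p under 0.05 was found for 2015 genes (15.4%), 1040 higher and 975 lower.

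The called set depended on single libraries. Without VEH replicate 1, 2, 3 or 5 the number called was 3, 15, 89 or 80, and without TBT replicate 3, 5 or 6 it was 27, 17 or 368. A fit of the 7 libraries alone, which estimates the spread from 5-month liver only, called 0 of 12099 genes. Its smallest adjusted p was 0.29, and 829 genes had an unadjusted p under 0.05. The biological coefficient of variation, edgeR's measure of spread between libraries, was 0.264 in that fit. It was 0.205 in the main fit, which shares its spread with liver of the later age. How far this difference set the number of calls was not tested. With counts thinned to the smallest library total, 17 genes were called, 13 of them among the 47. Without replicate 3 of both groups, the pair with high Saa2, 11 genes were called, 7 of them among the 47. Gpd1l, Rpl24 and Mafg passed the threshold in each of the 7 fits with 1 library omitted, and Hpgd, Ngef and mt-Co2 in all of them but that without VEH replicate 1 (adjusted p = 0.091, 0.0725 and 0.0725 there).

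**Figure D1:**
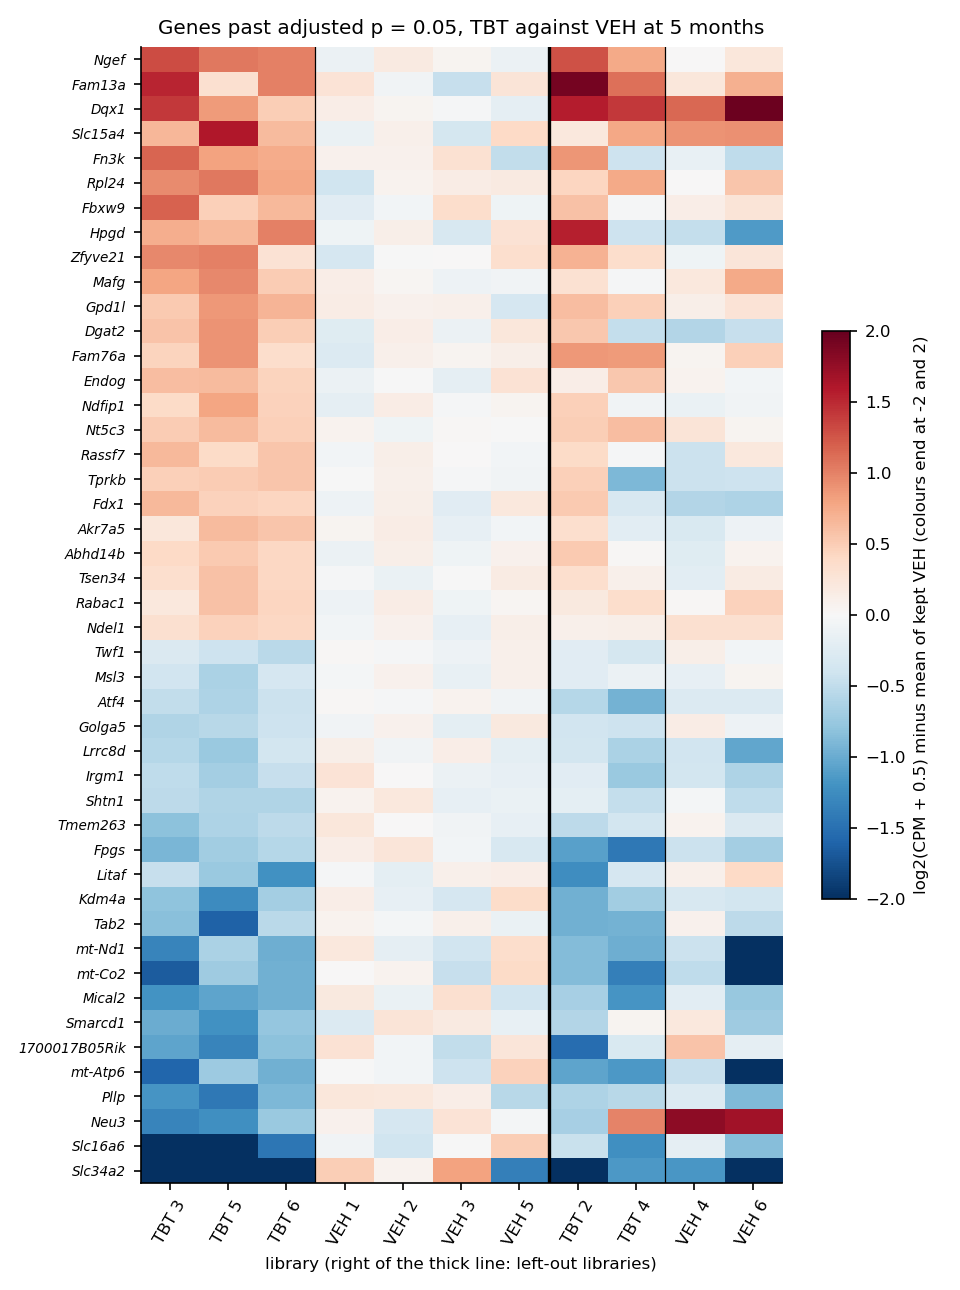
Heat map of 46 of the 47 called genes (rows) in the 11 libraries of 5 months (columns), as log2(CPM + 0.5) minus the mean of the 4 kept VEH libraries, with red for higher and blue for lower. The 3 TBT columns on the left differ in colour from the 4 VEH columns beside them, while the 4 left-out libraries right of the thick line follow the pattern only in part.

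The heat map of called genes shows the genes from the largest increase to the largest decrease. Among those higher in TBT liver, Ngef, which encodes an exchange factor for small GTPases (ENSMUSG00000026259, chromosome 1, 87476834 to 87573870), was at 29.2, 24.5 and 23.6 CPM in the TBT libraries, against 10.5, 13.1, 12.0 and 10.5 CPM in the VEH libraries. The lowest TBT library was well above the highest VEH library, and the log2 fold change (log2FC) was 1.19 (SE 0.19, adjusted p = 0.0206). Mafg, a small Maf protein that pairs with NRF2 on stress response genes (chromosome 11, 120625117 to 120633600), had 60.1, 67.4 and 49.5 CPM in TBT liver, against 37.8, 35.6, 32.0 and 32.9 CPM in VEH liver. The groups did not overlap, and Mafg rose by 0.80 in log2FC (SE 0.12, adjusted p = 0.0169). On the list of 22 tested NRF2 targets, however, 0 were called and 1 had an unadjusted p under 0.05 (against 15.4% of all genes tested). That gene was Nqo1, a quinone reductase, with a log2FC of 0.83 (SE 0.35, adjusted p = 0.266).

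Further called increases were those of Gpd1l, Dgat2, Hpgd and Fn3k. Gpd1l, related to the glycerol-3-phosphate dehydrogenase of the cytosol (chromosome 9, 114899341 to 114933987), was at 38.8, 49.7 and 43.4 CPM in TBT libraries, against 29.9, 28.8, 28.9 and 21.3 CPM in VEH libraries. VEH replicate 5 was the lowest of all 7, and the log2FC was 0.71 (SE 0.11, adjusted p = 0.0206). Dgat2, the enzyme of the last step of triglyceride synthesis (chromosome 7, 99153658 to 99182719), was at 663, 837 and 631 CPM against 376, 491, 412 and 524 CPM in VEH liver, with a log2FC of 0.68 (SE 0.13, adjusted p = 0.0352). It was the 1 called gene among 25 lipogenesis genes (0.183% of all genes tested were called higher). Of the 25, 3 had an unadjusted p under 0.05 (against 15.4% of all genes tested). The list's median log2FC was 0.02, against 0.01 over all genes tested. Hpgd, the dehydrogenase that inactivates prostaglandins (chromosome 8, 56294585 to 56321043), was at 66.5, 62.4 and 80.3 CPM in TBT liver, against 37.6, 43.2, 31.8 and 48.5 CPM in VEH liver (log2FC 0.82, SE 0.15, adjusted p = 0.0272). Fn3k, a kinase that removes sugar adducts from proteins, averaged 10.7 ± 1.82 CPM in TBT liver, against 5.59 ± 1.32 CPM in VEH liver (n = 3 and 4, ± SD; log2FC 0.97).

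Some increases rested unevenly on the 3 TBT libraries. Slc15a4, a peptide and histidine transporter of lysosomes, was at 21.8, 42.1 and 21.2 CPM in TBT libraries, against 12.3, 14.5, 10.4 and 17.9 CPM in VEH libraries, so that TBT replicate 5 was far above the rest (log2FC 1.06, SE 0.22, adjusted p = 0.0466). Fam13a, which encodes a protein with a GTPase-activating domain, was at 17.2, 7.17 and 11.9 CPM, against 6.91, 5.39, 3.95 and 6.89 CPM in VEH liver. TBT replicate 5 lay just above the highest VEH library there, and the log2FC was 1.11 (SE 0.24, adjusted p = 0.0466). Dqx1, a gene of a helicase-like protein, had 11.1, 7.31 and 5.59 CPM in TBT liver, against 4.26, 4.03, 3.79 and 3.36 CPM in VEH liver (log2FC 1.08, SE 0.21, adjusted p = 0.0352). Rpl24, a protein of the large ribosomal subunit, was counted at 19.01, 20.4 and 16.8 CPM against 7.19, 10.0, 10.7 and 11.0 CPM in VEH liver (log2FC 0.97, SE 0.14, adjusted p = 0.0169). Reads of its processed copies may be shared with it, so its value is uncertain.

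The remaining increases had log2FCs of 0.83 or less. Fbxw9, an F-box protein gene, and Zfyve21 had log2FCs of 0.83 and 0.80. The other 12 higher genes were Fam76a, Endog (a mitochondrial nuclease), Ndfip1 (an adaptor of NEDD4 ubiquitin ligases), Nt5c3 (a pyrimidine nucleotidase), Rassf7 (a Ras association domain protein), Tprkb (a partner of the tRNA-modifying KEOPS complex), Fdx1 (an electron donor for mitochondrial P450 enzymes), Akr7a5 (an aldehyde reductase), Abhd14b, Tsen34 (a subunit of the tRNA splicing endonuclease), Rabac1 (a Rab-binding protein) and Ndel1 (a dynein regulator). They were named because they are called, after their values were seen. Their log2FCs ran from 0.43 for Ndel1 to 0.61 for Fam76a. Tprkb was at 141, 144 and 149 CPM in the TBT libraries, against 101, 109, 99.0 and 96.5 CPM in the VEH libraries (log2FC 0.54, SE 0.10, adjusted p = 0.0272).

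On the lower side the largest change was that of Slc34a2, a sodium-phosphate cotransporter (ENSMUSG00000029188, chromosome 5, 53038081 to 53071664). It was at 0.326, 0 and 0.447 CPM in the TBT libraries, against 6.503, 4.71, 8.16 and 1.42 CPM in the VEH libraries. TBT liver held only a few counts of it, and VEH replicate 5 was well under the other VEH libraries (log2FC -4.09, SE 0.71, adjusted p = 0.0272). Slc16a6, a monocarboxylate transporter that exports ketone bodies from zebrafish liver (chromosome 11, 109450855 to 109473598), was at 3.02, 1.35 and 4.84 CPM in TBT liver, against 13.4, 10.5, 13.9 and 19.9 CPM in VEH liver. It fell by 2.15 in log2FC (SE 0.39, adjusted p = 0.0338). Mical2, a monooxygenase that oxidises actin (chromosome 7, 112225856 to 112413106), had 16.6, 18.3 and 19.6 CPM in TBT liver, against 43.9, 35.1, 48.0 and 29.5 CPM in VEH liver (log2FC -1.08, SE 0.19, adjusted p = 0.0272).

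Other called decreases included those of Tab2, Kdm4a, Smarcd1, Litaf, Neu3 and Pllp. Tab2, an adaptor of the kinase TAK1, was at 39.8, 23.0 and 49.2 CPM in TBT libraries, against 75.6, 69.4, 76.9 and 65.1 CPM in VEH libraries (log2FC -0.91, SE 0.19, adjusted p = 0.0466). Kdm4a, a histone lysine demethylase, was at 35.2, 25.6 and 38.4 CPM, against 67.7, 55.3, 48.6 and 80.1 CPM in VEH liver (log2FC -0.90, SE 0.19, adjusted p = 0.0466). TBT replicate 5, the shallowest library, was the lowest for both genes. Smarcd1, a subunit of SWI/SNF chromatin remodellers, had a log2FC of -1.09, and Litaf, a protein of late endosomes, had 160.3, 132 and 94.9 CPM in TBT liver against 215, 192, 235 and 239.9 CPM in VEH liver (log2FC -0.75, SE 0.15, adjusted p = 0.0352). Neu3, a sialidase of gangliosides, and Pllp, a membrane proteolipid, were low in all libraries, at 0.963 ± 0.330 and 1.92 ± 0.449 CPM in TBT liver, against 2.60 ± 0.536 and 4.99 ± 1.25 CPM in VEH liver (n = 3 and 4, ± SD).

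Atf4, the transcription factor of the integrated stress response (chromosome 15, 80255184 to 80257541), was at 63.3, 58.3 and 66.4 CPM in TBT libraries, against 90.8, 88.5, 93.8 and 85.3 CPM in VEH libraries. Both groups were narrow, and Atf4 fell by 0.49 in log2FC (SE 0.11, adjusted p = 0.0487). It was the 1 called gene of 22 on the stress response list (0.175% of all genes tested were called lower), whose median log2FC was -0.02. At an unadjusted p under 0.05, 1 of the 22 was higher (against 7.93% of all genes tested) and 1 lower (against 7.43%). The remaining decreases included Fpgs (which adds glutamate to folates), Irgm1 (an immunity-related GTPase), Lrrc8d (a subunit of volume-regulated anion channels), Golga5 (a golgin), Shtn1, Tmem263, Msl3 (a member of the MSL chromatin complex), Twf1 (an actin-binding protein), 1700017B05Rik and 3 genes of the mitochondrial genome. Fpgs was at 116, 136 and 148 CPM in TBT liver, against 239.5, 259.9, 210.2 and 175 CPM in VEH liver (log2FC -0.71, SE 0.13, adjusted p = 0.0352). Gene length moved slightly with the contrast. The median exonic length was 3178.5 bases for called higher genes and 4026 bases for called lower genes, against 4455 bases over all genes tested, and the Spearman correlation of log2FC with length across genes was -0.14 at 5 months and 0.03 at 10 months. Its part in the calls was not tested.

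Many circadian clock genes differed several-fold in mean level between the groups, but 0 of 26 were called, with a smallest adjusted p of 0.0524. Over the 26 genes, 15 (57.7%) had an unadjusted p under 0.05, 10 higher and 5 lower, against 15.4% of all genes tested, and in 12 (46.2%) the groups did not overlap, against 8.06% of all genes tested. In 9 of the 12 the TBT libraries lay above the VEH libraries (3.51% of all genes tested) and in 3 below (4.55%). The clock lists were chosen with earlier results of these data known, so these shares are descriptive. Without TBT replicate 6 edgeR called 9 clock genes, without VEH replicate 5 it called 2, and without each other kept library it called 0. DESeq2 called 11 of the 26 on the same libraries.

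Promoters of 4 clock genes are shown because they carry the 3 kinds of site through which the clock loop is known to act. The windows span 250 bases before to 50 after the RefSeq start on GRCm38.p6, written 5′ to 3′ on the gene's strand, with matches in capitals. The motifs searched on both strands were the E-box CACGTG bound by BMAL1 partners, the D-box TTATGTAA or TTACGTAA bound by DBP and TEF, and the ROR element, AGGTCA preceded by AANT, bound by ROR and REV-ERB receptors. The 4 windows are those of Arntl at chr7:113207261-113207560 (plus strand, ROR element), Per3 at chr4:151044616-151044915 (minus strand, D-boxes), Tef at chr15:81802423-81802722 (plus strand, E-box) and Bhlhe41 at chr6:145865371-145865670 (minus strand, E-box).
Arntl: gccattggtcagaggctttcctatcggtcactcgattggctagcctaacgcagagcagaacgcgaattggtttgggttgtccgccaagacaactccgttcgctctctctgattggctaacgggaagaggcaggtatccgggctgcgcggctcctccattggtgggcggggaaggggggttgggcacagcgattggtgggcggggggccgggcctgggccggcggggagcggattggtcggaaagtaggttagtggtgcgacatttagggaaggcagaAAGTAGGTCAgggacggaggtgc
Per3: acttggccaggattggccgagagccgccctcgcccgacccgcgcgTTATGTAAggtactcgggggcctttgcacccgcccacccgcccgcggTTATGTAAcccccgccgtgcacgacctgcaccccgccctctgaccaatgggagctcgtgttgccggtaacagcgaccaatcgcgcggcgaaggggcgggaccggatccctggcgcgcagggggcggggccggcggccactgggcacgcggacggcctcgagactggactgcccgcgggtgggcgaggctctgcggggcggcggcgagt
Tef: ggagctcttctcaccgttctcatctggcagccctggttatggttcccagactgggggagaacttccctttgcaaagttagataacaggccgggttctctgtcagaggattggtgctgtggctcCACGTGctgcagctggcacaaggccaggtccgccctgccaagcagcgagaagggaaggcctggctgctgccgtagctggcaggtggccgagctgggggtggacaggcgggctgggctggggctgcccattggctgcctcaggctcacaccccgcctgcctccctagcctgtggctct
Bhlhe41: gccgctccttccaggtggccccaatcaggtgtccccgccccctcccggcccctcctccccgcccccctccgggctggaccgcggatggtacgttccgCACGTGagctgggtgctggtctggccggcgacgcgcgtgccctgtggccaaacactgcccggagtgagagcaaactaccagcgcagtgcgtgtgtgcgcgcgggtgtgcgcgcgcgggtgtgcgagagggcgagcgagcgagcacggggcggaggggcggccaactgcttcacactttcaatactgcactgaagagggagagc
RefSeq windows matched 22 of the 26 clock genes, 29 windows in all. The E-box was in 8 of the 29 windows, those of 7 genes, and 7.15% of all 32851 promoter windows held it. The D-box was in the window of Per3 alone, at 2 places, and 1.06% of all windows held it. The ROR element was in 2 of the 29 windows, those of Arntl and Leo1, and 0.219% of all windows held it. No motif match overlapped another in the printed windows, and a match is a description of letters only.

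Of the 5 activators of the loop, 3 had an unadjusted p under 0.05, all with lower levels in TBT liver (against 7.43% of all genes tested). Arntl, which encodes BMAL1 (ENSMUSG00000055116, chromosome 7, 113207465 to 113314126), was at 3.75, 1.62 and 7.97 CPM in the TBT libraries, against 22.6, 20.2, 27.8 and 13.2 CPM in the VEH libraries. Its groups did not overlap, and the log2FC was -2.14 (SE 0.54, adjusted p = 0.0814). Npas2, the partner of BMAL1 that can stand in for CLOCK (chromosome 1, 39193731 to 39363236), was at 0.0816, 0.947 and 0.745 CPM in TBT liver, against 6.62, 3.45, 4.05 and 1.28 CPM in VEH liver (log2FC -2.75, SE 0.83, adjusted p = 0.125). Clock was at 61.7, 69.0 and 90.3 CPM in TBT liver, against 131, 128, 98.8 and 81.1 CPM in VEH liver, where VEH replicate 5 lay within the TBT range (log2FC -0.55, SE 0.17, adjusted p = 0.116). Rora, a receptor that activates Arntl through its ROR element, had a log2FC of -0.26 (SE 0.15), and its groups overlapped.

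All 10 genes of the repressing arm had a log2FC above 0, against 6658 of 13115 genes tested. At an unadjusted p under 0.05, 5 of the 10 were higher (against 7.93% of all genes tested). Per3, a period gene (ENSMUSG00000028957, chromosome 4, 151003652 to 151044665), was at 17.5, 5.82 and 7.97 CPM in TBT libraries, against 0.921, 0.534, 0.832 and 2.95 CPM in VEH libraries (log2FC 2.98, SE 0.71, adjusted p = 0.0735). The lowest TBT library was still above VEH replicate 5, which was itself above the other 3 VEH libraries. Per2, also a period gene, was at 13.5, 27.1 and 9.32 CPM in TBT liver, against 5.01, 4.71, 4.31 and 8.75 CPM in VEH liver (log2FC 1.54, SE 0.40, adjusted p = 0.087). Cry2, a cryptochrome, was at 30.7, 42.8 and 24.6 CPM, against 19.6, 18.5, 17.2 and 20.4 CPM in VEH liver (log2FC 0.81, SE 0.21, adjusted p = 0.086). The receptor REV-ERB beta, encoded by Nr1d2, was at 109, 118 and 106 CPM in TBT liver, against 49.2, 53.5, 37.9 and 69.0 CPM in VEH liver (log2FC 1.11, SE 0.31, adjusted p = 0.103). Bhlhe41, a repressor that competes at E-boxes, was low, at 2.28, 2.57 and 1.94 CPM against 0.115, 0.437, 0.156 and 1.46 CPM in VEH liver (log2FC 1.98, SE 0.78, adjusted p = 0.231).

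Other repressors overlapped between the groups. Per1 was at 6.04, 19.1 and 6.41 CPM in the TBT libraries, against 2.36, 1.21, 0.935 and 15.8 CPM in the VEH libraries, with VEH replicate 5 the second highest of all 7. Cry1 had 2.61, 8.39 and 9.17 CPM in TBT liver, against 6.04, 6.94, 7.80 and 5.29 CPM in VEH liver (log2FC 0.05, SE 0.47). Nr1d1, the gene of REV-ERB alpha, had 30.5, 26.5 and 37.0 CPM against 32.5, 25.7, 16.5 and 41.5 CPM in VEH liver (log2FC 0.14, SE 0.43). Thus the paralogs Nr1d1 and Nr1d2, and Cry1 and Cry2, had different positions of the TBT libraries relative to VEH, a difference that was not tested. Ciart and Bhlhe40 had log2FCs of 2.02 (SE 1.09) and 0.53 (SE 0.39).

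**Figure D2:**
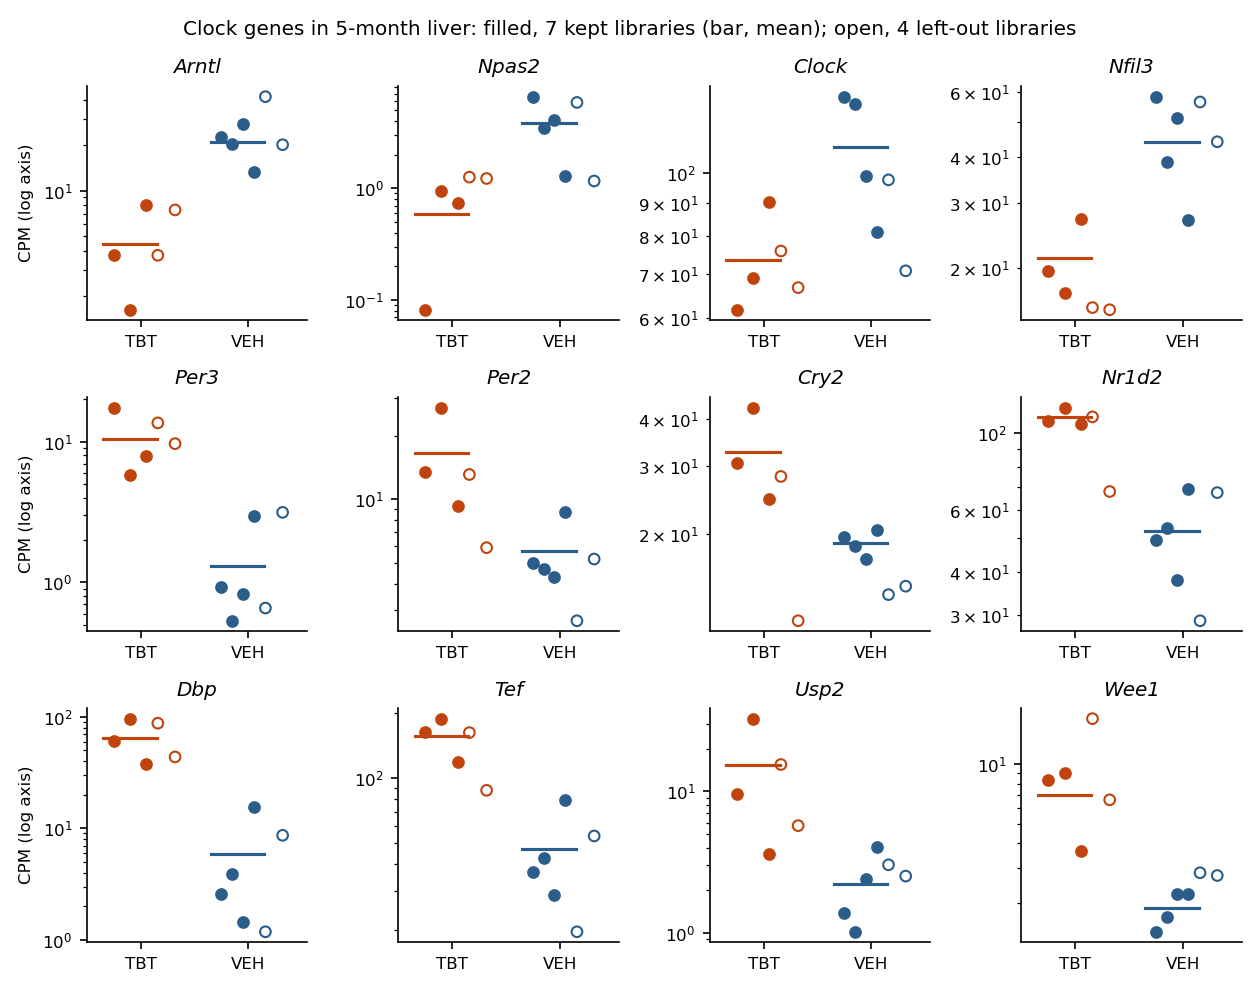
CPM on log axes of 12 clock genes in 5-month liver, with the TBT libraries on the left and the VEH libraries on the right of each panel. Filled points are the 7 kept libraries with a bar at their mean, and open points are the 4 left-out libraries. Arntl sits between 1.62 and 7.97 CPM in the 3 kept TBT libraries and between 13.2 and 27.8 CPM in the 4 kept VEH libraries.

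The PAR bZIP output factors Dbp and Tef and the clock-controlled genes Usp2 and Wee1 are plotted in the lowest row of the panels of clock gene levels. Dbp, an output factor that binds D-boxes (chromosome 7, 45705088 to 45710203), was at 60.6, 96.2 and 38.1 CPM in TBT liver, against 2.59, 3.93, 1.46 and 15.6 CPM in VEH liver. Its fold change was the largest of the 26, but so was its error (log2FC 3.45, SE 1.13, adjusted p = 0.159). Tef, of the same family (chromosome 15, 81802421 to 81826863), was at 162, 188 and 119 CPM in TBT liver, against 36.8, 42.9, 28.7 and 79.5 CPM in VEH liver (log2FC 1.76, SE 0.41, adjusted p = 0.0661). Hlf, the third member of the family, was at 23.3, 28.0 and 27.7 CPM in TBT liver, against 24.8, 24.9, 24.1 and 22.2 CPM in VEH liver, and its groups overlapped (log2FC 0.16, SE 0.18). Nfil3, the repressor that opposes this family at D-boxes, was at 19.6, 17.1 and 27.2 CPM, against 58.4, 38.8, 51.2 and 27.0 CPM in VEH liver, with TBT replicate 6 just above VEH replicate 5 (log2FC -1.01, SE 0.38, adjusted p = 0.213).

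Among clock-controlled targets, Wee1, a kinase that delays mitosis (chromosome 7, 110122046 to 110143286), had the smallest adjusted p of the clock genes. It was at 8.32, 9.07 and 3.65 CPM in the TBT libraries, against 1.44, 1.70, 2.23 and 2.22 CPM in the VEH libraries (log2FC 1.89, SE 0.41, adjusted p = 0.0524). Usp2, a ubiquitin protease, was at 9.63, 32.5 and 3.58 CPM, against 1.38, 1.02, 2.39 and 4.01 CPM in VEH liver, and TBT replicate 6 lay under VEH replicate 5 (log2FC 2.76, SE 0.69, adjusted p = 0.075). Leo1, a subunit of the PAF1 transcription complex, was at 9.71, 5.41 and 12.2 CPM in TBT liver, against 16.1, 15.6, 15.9 and 15.9 CPM in VEH liver, where the 4 libraries were nearly equal (log2FC -0.75, SE 0.17, adjusted p = 0.0547). Nampt, the enzyme of NAD salvage, was at 48.1, 63.7 and 46.1 CPM against 41.4, 45.4, 33.5 and 40.1 CPM in VEH liver (log2FC 0.42, SE 0.14, adjusted p = 0.153). Tsku, Tspan4 and Lonrf3 had overlapping groups and log2FCs of 0.93 (SE 0.75), 0.49 (SE 0.30) and -0.87 (SE 0.46).

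Single libraries held recurring places among the 15 clock genes with an unadjusted p under 0.05. VEH replicate 5 was the VEH library nearest to TBT in 12 of the 15, and TBT replicate 6 was the TBT library nearest to VEH in 13 of the 15. VEH replicate 5 is also the deepest of the 7 libraries. The left-out libraries, which the fit did not use, had both TBT libraries on the same side of both VEH libraries in 11 of the 15 (73.3%), against 20.9% of all genes tested. The exceptions were Clock, Npas2, Cry2 and Bhlhe41. For Arntl the left-out TBT libraries were at 3.73 and 7.45 CPM and the left-out VEH libraries at 41.9 and 20.1 CPM. For Dbp they were at 87.6 and 43.7 CPM in TBT liver, against 1.18 and 8.67 CPM in VEH liver.

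**Figure D3:**
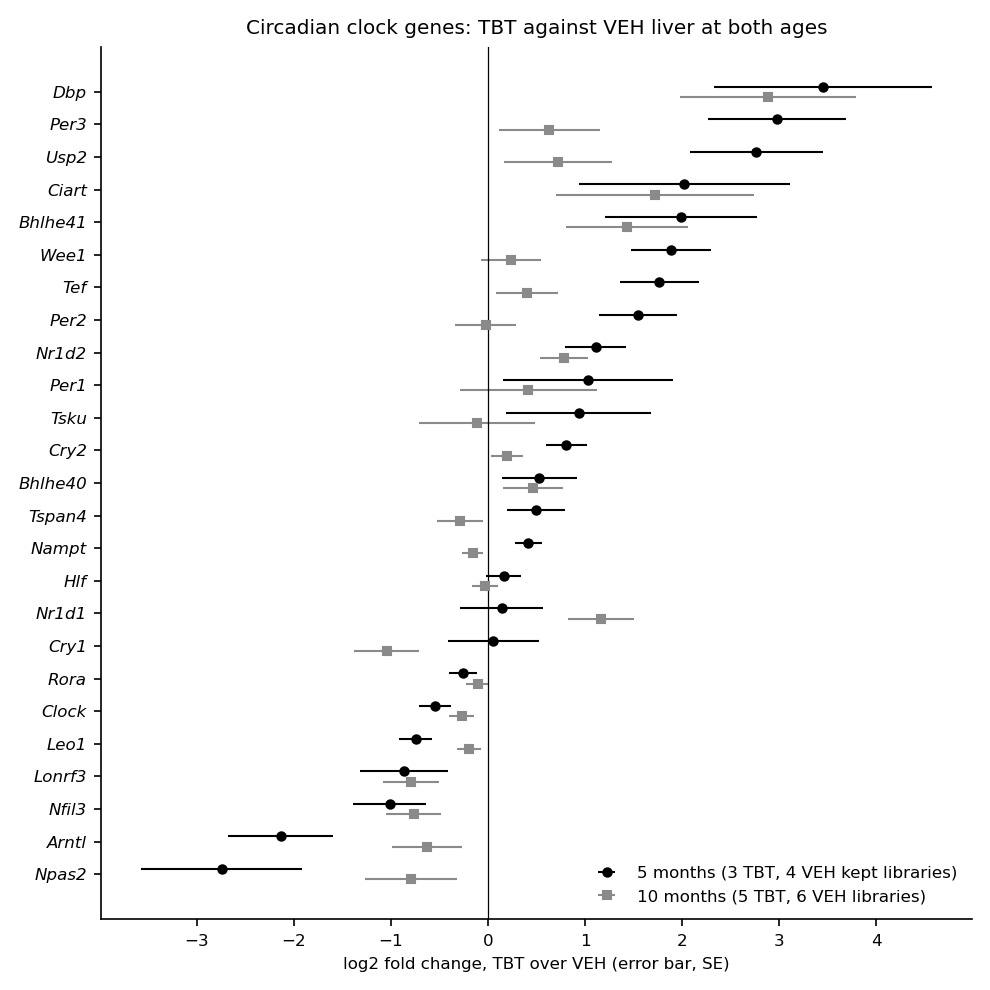
Log2 fold change of TBT over VEH liver with its SE for 25 of the 26 clock genes, at 5 months in the kept libraries (black circles) and at 10 months (grey squares). Most grey squares lie nearer to 0 than the black circles, as for Per3 (2.98 at 5 months and 0.63 at 10 months), while Dbp is at 3.45 and 2.89. The reverse holds for Nr1d1 (0.14 at 5 months and 1.16 at 10 months) and Cry1 (0.05 and -1.04).

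At 10 months, 0 of 13115 genes were called between TBT and VEH liver by edgeR, with 471 (3.59%) at an unadjusted p under 0.05, 237 higher (1.81%) and 234 lower (1.78%), and a smallest adjusted p of 0.66. DESeq2 called 1 gene, with 551 at an unadjusted p under 0.05, and limma-voom called 0, with 582. The difference of the TBT effects between the ages was called for 0 genes (1482, or 11.3%, at an unadjusted p under 0.05, smallest adjusted p = 0.137). DESeq2 called that difference for 117 genes and limma-voom for 0, with 1620 and 1299 at an unadjusted p under 0.05. Of all 26 clock genes, 4 were higher (against 1.81%) and 4 lower (against 1.78%) at an unadjusted p under 0.05 at 10 months. Nr1d1 and Cry1 were among them, with log2FCs of 1.16 (SE 0.34) and -1.04 (SE 0.34), against 0.14 and 0.05 at 5 months. As the plot of clock effects at both ages shows, 13 of the 15 clock genes picked at 5 months (86.7%) had the same sign at 10 months. That compares with 49.6% of all genes tested, and Per2 and Nampt were the exceptions. The median size of the 15 was 1.76 at 5 months and 0.63 at 10 months on the log2 scale. The 15 were picked by their p at 5 months, which favours larger sizes at that age, so these medians do not measure a decline. The difference of ages had an unadjusted p under 0.05 in 9 of the 15 (against 11.3% of all genes tested). That contrast contains the 5-month effect by which the 15 were picked, so the count is descriptive. The smallest adjusted p over the 26 was 0.252.

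Dbp at 10 months was at 2.74, 53.5, 52.99, 4.93 and 5.08 CPM in the TBT libraries numbered 10, 2, 4, 8 and 9, and at 0.845 to 10.2 CPM in the 6 VEH libraries, with a log2FC of 2.89 at that age. TBT replicates 2 and 4 of that age were high, and the other 3 lay within the VEH range. Arntl was lowest in the same libraries, with 10.2 CPM and 9.13 CPM there, while the other 3 TBT libraries held 26.8 to 39.4 CPM and the VEH libraries 25.1 to 42.8 CPM. The level of the clock genes thus varied between libraries of 1 group at 10 months. Of the 47 called genes, 22 (46.8%) had the same sign at 10 months, near the 49.6% of all genes tested. The median size of the 47 was 0.07 on the log2 scale at that age. They were picked at 5 months, which favours larger sizes there, so the sizes do not measure a decline. At 10 months 6 of the 47 had an unadjusted p under 0.05 (against 3.59% of all genes tested). These were Slc34a2, mt-Atp6, Smarcd1, Mical2, mt-Co2 and Lrrc8d, and the first 5 were lower in TBT liver at both ages. In the left-out libraries of 5 months both TBT libraries lay on the called side of both VEH libraries for 20 of the 47 (42.6%), 10 higher and 10 lower, against 20.9% of all genes tested.

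All 13 genes of the mitochondrial genome, which encode subunits of the respiratory chain and ATP synthase, had a log2FC below 0. Of the 13, 3 were called, all lower (against 0.175% of all genes tested), and 11 had an unadjusted p under 0.05, all lower (against 7.43%), with a median log2FC of -0.92. At 10 months the median was -0.33 and 5 had an unadjusted p under 0.05, all lower (against 1.78%). In the left-out libraries of 5 months the groups overlapped for 12 of the 13, and mt-Co1 was higher in both TBT than in both VEH libraries. The subunit genes called were mt-Nd1 of complex I, mt-Co2 of complex IV and mt-Atp6 of ATP synthase. In TBT libraries mt-Nd1 was at 625, 1016 and 794 CPM, against 1815, 1390.2, 1203 and 2001 CPM in VEH libraries (log2FC -0.95, SE 0.17, adjusted p = 0.0272). The groups did not overlap, and TBT replicate 3 was the lowest library. The left-out TBT libraries held 862 and 801 CPM of mt-Nd1, and the left-out VEH libraries 1169 and 353 CPM, so that VEH replicate 6 lay below every TBT library. For mt-Co2 the levels were 20.8, 40.6 and 33.9 CPM in TBT liver, against 67.3, 70.2, 48.2 and 86.6 CPM in VEH liver (log2FC -1.08, SE 0.19, adjusted p = 0.0272), and for mt-Atp6 the log2FC was -1.09 (SE 0.20, adjusted p = 0.0272). Without TBT replicate 3 edgeR called 1 of the 13, and without VEH replicate 1 it called 0.

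Mitochondrial RNA as a whole took 0.913, 1.33 and 1.35% of counts in the TBT libraries and 1.79, 1.64, 1.22 and 1.91% in the VEH libraries, so the shares overlapped. Most of it came from mt-Co1, at 8071, 9781 and 11117 CPM in TBT liver, against 13241, 13404, 9829 and 16989.8 CPM in VEH liver (log2FC -0.44, SE 0.17, adjusted p = 0.226). Copies of mitochondrial sequence in the nuclear genome can share reads with these genes, so their counts are uncertain. In bulk liver, fewer mitochondria, fewer cells of a type and less RNA in each cannot be told apart. Of 35 nuclear genes of oxidative phosphorylation 0 were called, and their median log2FC was 0.14. At an unadjusted p under 0.05, 5 were higher (against 7.93% of all genes tested) and 1 lower (against 7.43%). Among these, Ndufa2 of complex I averaged 86.2 ± 8.46 CPM in TBT liver, against 67.5 ± 9.62 CPM in VEH liver (n = 3 and 4, ± SD; adjusted p = 0.104). The cytosolic ribosomal protein list had a median of 0.16 and 0 called. At an unadjusted p under 0.05, 6 of 32 were higher (against 7.93% of all genes tested). Rpl24, which was called higher, is not on that list. On the list, Rps20, of the small subunit, averaged 155 ± 13.2 CPM in TBT libraries, against 122 ± 19.5 CPM in VEH libraries (log2FC 0.37, SE 0.12, adjusted p = 0.145).

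**Figure D4:**
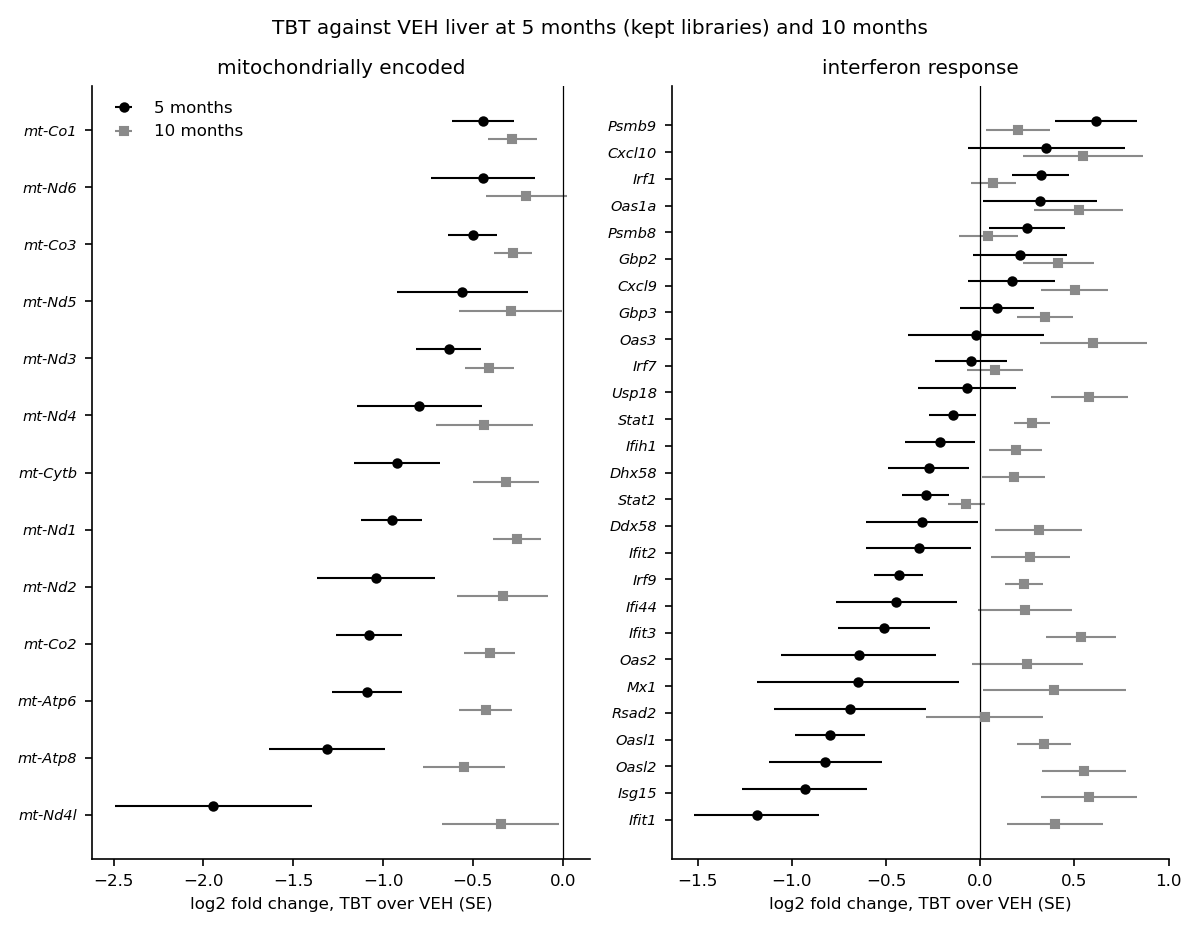
Log2 fold change of TBT over VEH liver with its SE for 13 mitochondrially encoded genes (left) and 27 interferon response genes (right), at 5 months in the kept libraries (black circles) and at 10 months (grey squares). All black circles on the left are below 0, and on the right the lowest 4 black circles, from Ifit1 at -1.19 to Oasl1 at -0.80, have grey squares above 0.

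Interferon response genes, which defend cells against viruses, included 0 called of 27. At 5 months 7 were lower (against 7.43% of all genes tested) and 1 higher (against 7.93%) at an unadjusted p under 0.05, with a median log2FC of -0.27, and 4 had all TBT libraries below all VEH libraries (against 4.55%). At 10 months 12 were higher (against 1.81%) and 0 lower (against 1.78%) at an unadjusted p under 0.05, with a median of 0.31. The plot of mitochondrial and interferon genes at both ages shows both ages side by side. Oasl1, of the oligoadenylate synthetase family, was at 14.8, 12.0 and 14.6 CPM in TBT liver, against 33.3, 24.8, 24.2 and 16.05 CPM in VEH liver (log2FC -0.80, SE 0.19, adjusted p = 0.0574). Ifit1, an inhibitor of viral RNA translation, was at 8.00, 8.26 and 11.7 CPM, against 35.2, 22.3, 15.5 and 14.0 CPM in VEH liver (log2FC -1.19, SE 0.33, adjusted p = 0.0953). VEH replicate 1 was the highest library for both genes. The difference between ages had an unadjusted p under 0.05 for 7 of the 27 (against 11.3% of all genes tested). Its adjusted p was 0.146 for Oasl1 and 0.194 for Ifit1. The 7 Kupffer cell and macrophage markers, with 0 of 7 called and none at 0, summed to 678, 416 and 289 CPM in TBT liver and to 407, 289.8, 613 and 254 CPM in VEH liver.

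The acute phase list, the secretory response of liver to inflammation, had 0 of 31 genes called and a median log2FC of -0.27. At an unadjusted p under 0.05, 6 were lower (against 7.43% of all genes tested) and 1 higher (against 7.93%). Stat3, the factor that relays interleukin signals to these genes, was at 188, 204 and 129 CPM in TBT liver, against 281, 236, 239 and 375 CPM in VEH liver, without overlap (log2FC -0.67, SE 0.19, adjusted p = 0.0974). Fga, a fibrinogen chain, was at 14999, 8490.4 and 6040.0 CPM against 14741, 12978, 21295 and 19639 CPM in VEH liver (log2FC -0.77, SE 0.25, adjusted p = 0.141). Hamp, the iron-regulating hormone hepcidin, was at 71.8, 193 and 176 CPM in TBT liver, against 147, 528, 376 and 554 CPM in VEH liver, and VEH replicate 1 lay within the TBT range (log2FC -1.42, SE 0.51, adjusted p = 0.193). Saa2, with its pair of high libraries, had a log2FC of -0.50 with an SE of 2.15.

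Only some targets of the receptors that TBT is known to engage were examined, and a missed threshold does not show equal levels. On the retinoid list 0 of 13 tested genes were called. At an unadjusted p under 0.05, 2 were higher (against 7.93% of all genes tested) and 0 lower (against 7.43%). Cyp26a1, which degrades retinoic acid, was among the higher ones, but its groups overlapped (values under other observations). Of 18 tested lipid droplet and PPARG target genes, 0 were called and 1 had an unadjusted p under 0.05 (against 15.4% of all genes tested). That gene, Plin2, which coats lipid droplets, was at 316, 1205 and 1151 CPM in TBT liver, against 2334, 2979.5, 1199 and 1533 CPM in VEH liver (log2FC -1.15, SE 0.46, adjusted p = 0.246). Pparg itself was at 4.24, 1.35 and 7.75 CPM in the TBT libraries, against 4.49, 3.93, 3.90 and 2.84 CPM in the VEH libraries (log2FC 0.33, SE 0.46), and Fabp4, a fatty acid carrier and PPARG target, had 0.41 (SE 0.31). Cidec, a lipid droplet fusion protein, was at 1.31, 13.1 and 4.70 CPM in TBT liver, against 23.5, 21.99, 2.55 and 24.9 CPM in VEH liver, with replicate 3 lowest in both groups. Among 22 RXR and nuclear receptor partner genes 0 were called. At an unadjusted p under 0.05, 1 was higher (against 7.93% of all genes tested) and 1 lower (against 7.43%). All TBT libraries lay above all VEH libraries in 0 of the 22 (against 3.51%) and below them in 1 (against 4.55%). Rxra, the main liver RXR, averaged 553 ± 50.04 CPM in TBT liver, against 640.4 ± 37.5 CPM in VEH liver (n = 3 and 4, ± SD; log2FC -0.19, SE 0.12, adjusted p = 0.491). The corepressor Ncor1 had -0.56 (SE 0.16, adjusted p = 0.0953), and the retinoic acid receptor Rarb had 1.36 (SE 0.43, adjusted p = 0.131).

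Fatty acid oxidation and PPARA target genes numbered 27 on the list, with 0 called and a median log2FC of -0.18. The log2FC was below 0 in 22 of the 27, against 6457 of 13115 genes tested. At an unadjusted p under 0.05, 3 were lower (against 7.43% of all genes tested) and 0 higher (against 7.93%). Among the lower ones, Pdk4, which restrains glucose oxidation, and Cpt2, of the carnitine shuttle, had -1.87 (SE 0.80) and -0.48 (SE 0.22). Fasn, the fatty acid synthase, and Scd1, a desaturase, had log2FCs of -0.34 (SE 0.80) and 0.05 (SE 0.52), and both varied more than 2-fold within VEH liver. Cyp7a1, the rate-limiting enzyme of bile acid synthesis, was at 413, 18.1 and 73.5 CPM in TBT liver, against 21.6, 9.42, 84.2 and 10.2 CPM in VEH liver, replicate 3 being highest in both groups (log2FC 2.44, SE 0.99, adjusted p = 0.254).

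**Figure D5:**
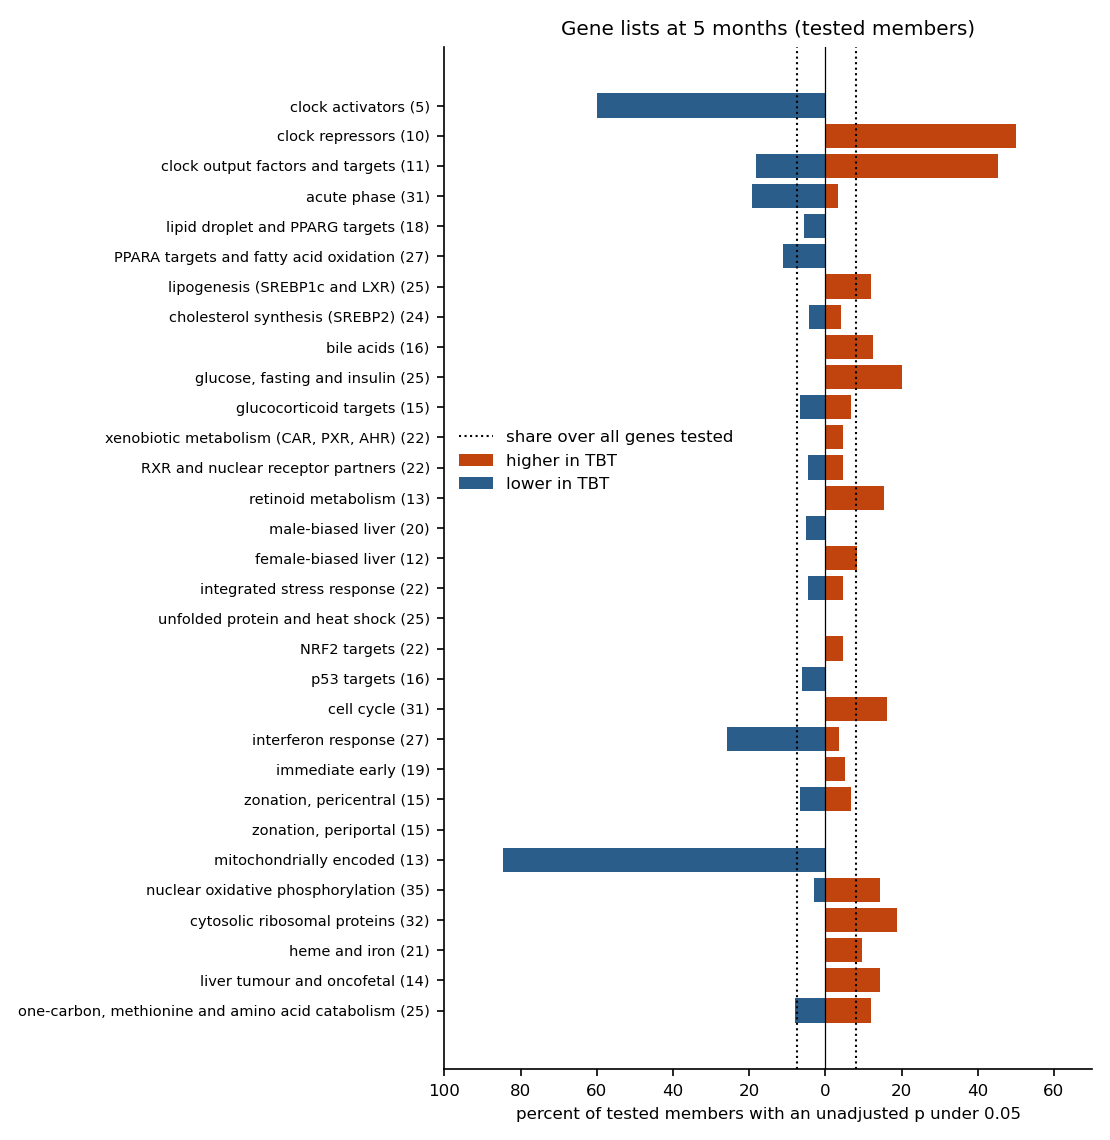
Percent of each gene list's tested members (number in brackets) with an unadjusted p under 0.05 at 5 months, higher in TBT liver to the right and lower to the left. Dotted lines mark the shares over all genes tested, 7.93% higher and 7.43% lower. The mitochondrially encoded genes and the clock lists reach farthest past them.

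The plot of list shares sets these lists beside others. The glucose, fasting and insulin list had 0 of 25 genes called and a median of 0.00. At an unadjusted p under 0.05, 5 were higher (against 7.93% of all genes tested) and 0 lower (against 7.43%). Gys2, the liver glycogen synthase, was at 199, 313 and 249 CPM in TBT liver, against 146, 152, 109 and 221 CPM in VEH liver (log2FC 0.72, SE 0.19, adjusted p = 0.0753). On the list of one-carbon and amino acid metabolism, 3 of 25 genes were higher (against 7.93%) and 2 lower (against 7.43%) at an unadjusted p under 0.05. Of 31 cell cycle genes 0 were called, and 5 had an unadjusted p under 0.05 (against 15.4% of all genes tested), all higher (against 7.93%). They include Tk1, a thymidine kinase, at 25.05, 10.8 and 17.8 CPM against 6.10, 8.59, 8.26 and 6.97 CPM in VEH liver (log2FC 1.30, SE 0.37, adjusted p = 0.103). Mki67, the proliferation antigen, had a log2FC of -0.13 (SE 0.47). The unfolded protein and heat shock list and the periportal zonation list had 0 genes at an unadjusted p under 0.05 among 25 and 15 tested. Cdkn1a, an inhibitor of the cell cycle induced by p53 and by glucocorticoids, was at 0.653, 5.82 and 1.42 CPM in TBT liver, against 18.3, 12.7, 5.46 and 26.9 CPM in VEH liver (log2FC -2.70, SE 0.77, adjusted p = 0.104).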

How the data were processed

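Per the labels' protocols, RNA was purified from frozen tissue on columns with DNase, and the library kit for total RNA keeps strand. The authors deposited raw counts for 22028 coding genes (27 symbols restored from dates), made with FastQC, Trim Galore, HISAT2, featureCounts and edgeR on mm10, per the submitters' processing notes. The sources used here give no settings, versions or strand use, so overlapping, antisense and near-identical genes are uncertain. Counts were tested with edgeR 4.0.16 in R 4.3.3 (TMM scaling, filterByExpr with minimum count 10 and minimum total 15, robust quasi-likelihood fit, Benjamini-Hochberg adjustment over 13115 genes, threshold 0.05). One fit held 18 libraries, namely the 7 kept libraries and the 11 liver libraries of 10 months, with 1 coefficient per group, so the spread is shared with 10-month liver. Levels are CPM scaled by TMM over the 22 liver libraries, except the Ly6d and Sis values that chose libraries, which are plain CPM. Fold changes are edgeR's, with SE from the F statistic.

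The members and the 44 gene lists (724 entries) were chosen with earlier results of these data known. Lists got no test, only counts and medians. Named genes were the 12 largest called changes in each direction with at least 2 CPM in a group (leaving out symbols of predicted genes, Gm and Rik), all clock genes, up to 4 members by smallest p of each list with a call or with an unadjusted p under 0.05 in at least 20% of its tested members, and Pparg, Cidea, Cidec, Fasn, Scd1, Cyp7a1, Hamp, Saa2, Atf4, Cdkn1a, Afp, Mki67, Hsd3b5, Ly6d and Sis. Other genes were named after their values were seen. Alternatives were DESeq2 1.42.0 with its scaling, limma-voom (limma 3.58.1), other filters, other sets of libraries, the replicate number as a block, thinned counts and omission of each library. Omission of replicate 3 from both groups was added after the data were seen. The fit was tested on simulated counts, and 0 pairs of libraries were identical (chi-square per degree of freedom at least 17.6). Coordinates are 1-based, from GENCODE M21 on GRCm38 (mm10), matched by gene identifier, and promoters are from RefSeq on GRCm38.p6. A few genes that count in the totals are not reported here by name.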

Additional observations from a re-analysis of the deposited data

Results flagged for a closer look

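In 10 of the 112 named genes, 1 of the 4 kept VEH libraries of 5 months lay apart from the other 3 by Dixon's 95% limit. That limit marks about 1 in 20 groups by chance. VEH replicate 5 was the library apart in 7 of them. It was highest for Per1, Per2, Per3 and Ciart, clock repressors, at 15.8, 8.75, 2.95 and 5.54 CPM, and for Fasn, the fatty acid synthase, at 1746 CPM. It was lowest for Gpd1l and Pllp, at 21.3 and 3.14 CPM. VEH replicate 3 was apart in the other 3 genes, with 2.55 CPM of Cidec, 84.2 CPM of Cyp7a1 and 14043 CPM of Saa2. The groups of 3 TBT libraries are too small for this rule.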

How the results depend on the processing

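Direction and call of the results were compared over 19 other settings. The number of genes called between TBT and VEH liver at 5 months was 22 (10 higher, 12 lower) with no filter on low counts, 421 (205 and 216) with DESeq2, 14 (8 and 6) with limma-voom, 0 (0 and 0) in the 7 libraries alone, 17 (9 and 8) with thinned counts, 265 (140 and 125) with all 11 libraries, 308 (174 and 134) with TBT replicate 2 restored and 71 (34 and 37) with the Ly6d-high libraries restored. Without replicate 3 of both groups it was 11 (2 and 9). Omission of 1 library gave 3 to 368 called (higher 3 to 182, lower 0 to 186). Clock genes called were 2 with median-of-ratios scaling, 1 with a stricter filter, 11 with DESeq2, 1 with thinned counts, 10 with all 11 libraries, 9 with TBT replicate 2 restored, 6 with the Ly6d-high libraries restored and 0 to 9 with 1 library omitted, while those at an unadjusted p under 0.05 stayed between 12 and 20 in every setting. Mitochondrially encoded genes called were 9 with DESeq2, 0 in the 7 libraries alone, 0 with all 11 libraries, 6 with TBT replicate 2 restored, 0 with the Ly6d-high libraries restored and 0 to 6 with 1 library omitted, and 6 and 6 had an unadjusted p under 0.05 with all 11 and with the Ly6d-high libraries restored. The difference of ages was called for 117 genes with DESeq2 and 0 to 7 with 1 library omitted, and the 7 libraries alone give no value for it. The replicate number was tried as a block because groups share numbers. Deviations of libraries with the same number correlated at 0.52 and 0.22 at 5 months and at 0.04 and -0.11 at 10 months. The labels do not tie equal numbers across groups, and the numbers were not taken as pairs. With the replicate block 0 genes were called (0 higher, 0 lower, 0 mitochondrially encoded), 1227 had an unadjusted p under 0.05, and the log2FC was -0.36 for Cry1, -0.31 for Pparg, -0.30 for Scd1 and -0.30 for Afp. Signs also turned, in genes that were not called, for Cry1 (limma-voom -0.13, all 11 libraries -0.44, Ly6d-high restored -0.44, 1 library omitted -0.29 to 0.46), Pparg (-0.31 to 0.69), Scd1 (Ly6d-high restored -0.030, 1 omitted -0.15 to 0.41), Afp (thinned -0.34), Cidea (thinned 0.016, all 11 0.65, TBT replicate 2 restored 0.33, Ly6d-high restored 0.32) and Mki67 (all 11 0.40, TBT replicate 2 restored 1.36, Ly6d-high restored 0.15, 1 omitted -0.30 to 0.13). With 1 library omitted the log2 fold change of Ngp ran from -5.65 to 4.32, the log2 fold change of Retnlg from -1.84 to 1.79 and the log2 fold change of Saa2 from -6.41 to 3.22. The range was -0.89 to 3.54 for S100a8, -1.30 to 2.32 for S100a9, -0.046 to 0.35 for Nr1d1, -0.59 to 1.56 for Tsku and -0.65 to 0.42 for Fasn. The 4 neutrophil genes turned sign without TBT replicate 3, and without replicate 3 of both groups S100a9, Retnlg and Nr1d1 were at -0.59, -1.44 and -0.040. The cause of these shifts was not tested. Of the 33 called genes named, 33 stayed called with DESeq2, 17 with no filter and 3 without VEH replicate 1. With 3 and 4 libraries and unequal depth, a gene that misses the threshold is not shown to be equal between the groups.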

Other observations

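The first 4 genes here had an unadjusted p under 0.05, were not called by edgeR, and come from the lists of retinoid, foreign compound, cell cycle and amino acid metabolism. Cyp26a1, which degrades retinoic acid, averaged 11.1 ± 15.3 CPM in TBT liver, against 0.84 ± 0.974 CPM in VEH liver (n = 3 and 4, ± SD), with a log2FC of 3.68 (SE 1.05, adjusted p = 0.106). Its groups overlapped, and its SD exceeded its mean in both groups. Cyp2a5, a P450 enzyme of foreign compounds, averaged 129 ± 30.3 CPM in TBT liver, against 57.6 ± 24.3 CPM in VEH liver (log2FC 1.20, SE 0.42, adjusted p = 0.184). Bub1b, a spindle checkpoint kinase, was at 1.88, 2.03 and 1.27 CPM in TBT libraries, against 0.806, 0.631, 0.728 and 0.583 CPM in VEH libraries, without overlap (log2FC 1.34, SE 0.43, adjusted p = 0.138). Gldc, the decarboxylase of glycine cleavage, was at 198, 109 and 219.7 CPM, against 313, 322, 238 and 205 CPM in VEH liver (log2FC -0.59, SE 0.23, adjusted p = 0.213). Hsd3b5, a male-biased steroid dehydrogenase, was measured at 307, 213 and 319 CPM in TBT liver, against 204, 231, 292 and 129 CPM in VEH liver, with overlapping groups and a log2FC of 0.41 (SE 0.38).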
